A study of Mus musculus with 10 samples.

Results

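The core pluripotency factors described here are 10 genes of the mouse pluripotency network outside the Klf and Sox families: Pou5f1, Nanog, Tfcp2l1, Nr5a2, Esrrb, Sall4, Sall1, Tbx3, Dppa2 and Dppa4. They were chosen by symbol, and all 10 were found among the 24421 genes listed. Total RNA of 8-cell mouse embryos was sequenced in 10 libraries, 2 for each of 5 groups, and every group carries the BDF1 genotype. The groups are a knockdown of the transcription factor Tfap2c (siTfap2c), a knockdown of the transcription factor Klf5 (siKlf5), 2 different knockouts of Tfap2c motifs (CdxE2_KO and Arpc1bE_CdxE1_KO) and a control (Ctrl). The labels give neither an agent for the control, nor the positions and alleles of the motifs knocked out, nor the number of embryos behind a library. They do not say whether the libraries of a group came from separate pools of embryos, so p-values measure the spread between these libraries, which may be technical.

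In mouse embryonic stem cells, pluripotency is held by transcription factors that bind and activate each other's genes, with Oct4 (the product of Pou5f1) and Nanog at the core. Factors of the naive state surround them, among them Tfcp2l1, the orphan nuclear receptors Esrrb and Nr5a2, and the T-box factor Tbx3. In the mouse embryo most of these genes are already transcribed during cleavage, before the inner cell mass and the trophectoderm separate, in cells that also contain the AP-2 factor Tfap2c and the Krüppel-like factor Klf5.

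The values are log2(abundance + 1). The files do not name the abundance measure, so levels are compared between groups for 1 gene at a time, and the depth is unknown. Knockdown and control values stood in different tables that may have been scaled apart. The linear abundances of a library summed to 478651 to 498621 units in the 4 motif knockout libraries, against 388454 to 395401 in the other 6. The median gene stood 0.29 log2 units above Ctrl in CdxE2_KO and 0.27 above it in Arpc1bE_CdxE1_KO, so motif knockout differences are given as deposited and again after each library was centred on its own median. Tfap2c stood at 3.94 and 4.09 log2 units in siTfap2c, against 6.61 and 6.61 in Ctrl, and Klf5 at 4.36 and 4.17 in siKlf5, against 7.20 and 7.13 in Ctrl. Klf5 was also low in siTfap2c, at 5.32 and 5.45. Of 12 cumulus and granulosa markers, 1 (Amhr2) reached 1 linear unit in every library, and Fshr and Inha were at 0 in all 10. The 6 sperm markers summed to at most 0.784 linear units, and 7 of 11 oocyte markers reached 1 linear unit in each library. The oocyte markers summed to 40.6 to 48.2 linear units in siTfap2c, 42.6 to 49.1 in siKlf5, 61.03 to 64.5 in CdxE2_KO and 52.5 to 68.8 in Arpc1bE_CdxE1_KO, against 42.4 to 44.3 in Ctrl. The trophectoderm markers other than Tfap2c, 11 genes, summed to 179 to 189 in siTfap2c, 136 to 146 in siKlf5, 266 to 315 in CdxE2_KO and 269.8 to 269.9 in Arpc1bE_CdxE1_KO, against 210.2 to 221 in Ctrl. Hand1 and Tead4 were the highest of these genes. Cdx2 went against the motif knockout sums. It stood at 0.82 and 0.93 log2 units in CdxE2_KO and 0.77 and 1.53 in Arpc1bE_CdxE1_KO, against 2.35 and 2.48 in Ctrl. In siTfap2c Hand1 went against the sum, at 6.91 and 6.96, against 6.73 and 6.70 in Ctrl. Of 9 trophectoderm markers tested, Tfap2c included, 4 were higher and 1 lower in Arpc1bE_CdxE1_KO as deposited, against 0 and 1 when centred. In CdxE2_KO 2 were higher and 1 lower, against 1 and 2 when centred. The shares called as deposited were 55.6% and 33.3%, beside 24% and 29.9% of all genes. In siTfap2c and in siKlf5 0 were higher and 5 lower (55.6%), beside 24.6% and 7.52% of all genes called. The 9 primitive endoderm markers summed to 124 in both siTfap2c libraries, and to 167 to 170.3 in siKlf5, 166 to 167 in CdxE2_KO and 154 to 182 in Arpc1bE_CdxE1_KO, against 169 to 169.6 in Ctrl. Gata6 was the highest of them, at 6.99 and 7.06 log2 units in siKlf5, against 6.86 and 6.82 in Ctrl. Of 5 tested in siKlf5, 0 were higher and 2 lower (40%, beside 7.52% of all genes), so the siKlf5 sum hides falls. The 6 markers of the later epiblast summed to 6.37 to 6.40 in siTfap2c, 8.15 to 8.18 in siKlf5, 15.8 to 16.8 in CdxE2_KO and 13.2 to 14.97 in Arpc1bE_CdxE1_KO, against 11.8 to 12.2 in Ctrl. These 6 did not move together in siTfap2c, where of 4 tested 1 was lower and 1 higher (50%, beside 24.6% of all genes). Dnmt3b stood at 1.69 and 1.85 log2 units there, against 3.44 and 3.49 in Ctrl. Fgf5 stood at 1.71 and 1.65, against 0.41 and 0.72 in Ctrl. All of these marker sums are as deposited, on library totals that were higher in the motif knockouts. On that scale, those of the trophectoderm and the later epiblast differed from Ctrl in the knockdowns and the motif knockouts. The oocyte sum differed in the motif knockouts and the primitive endoderm sum in siTfap2c. When centred, the median tested marker differed less from Ctrl in CdxE2_KO and Arpc1bE_CdxE1_KO. It stood at -0.0035 and 0.19 log2 units for the trophectoderm, 0.52 and -0.04 for the later epiblast, and 0.09 and 0.02 for the oocyte. The part of these markers in the results was not tested.

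In the Tfap2c knockdown, 8 of the 10 factors were lower than in Ctrl and 0 were higher, where 11.9% of the 11195 genes tested were called lower and 12.6% higher (limma with Benjamini-Hochberg adjustment over all genes tested, called at an adjusted p under 0.05). The 8 were Pou5f1, Nanog, Tfcp2l1, Nr5a2, Esrrb, Sall1, Tbx3 and Dppa2, while Sall4 and Dppa4 did not pass. The count was 4 without Ctrl replicate 1, 5 without siTfap2c replicate 1 and 6 without Ctrl replicate 2 or siTfap2c replicate 2. In the Klf5 knockdown, Tfcp2l1 and Nr5a2 were lower and 0 were higher, where 5.27% of all genes were lower and 2.25% higher. Fewer cells of a type and less RNA per cell cannot be told apart in these whole-embryo libraries. The median difference over the 10 factors was -0.53 log2 units in siTfap2c and -0.19 in siKlf5, beside medians of 0.04 and -0.02 over all genes tested in the same comparisons. Centring the libraries left 8 and 2 factors called lower, beside 12.4% of all genes lower and 11.6% higher in siTfap2c, and 3.94% lower and 3.39% higher in siKlf5.

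In the motif knockouts, factors were called in both directions. As deposited, Nanog, Dppa2 and Dppa4 were higher in CdxE2_KO and Pou5f1, Tfcp2l1, Nr5a2 and Sall1 were lower, where 28.5% of the 10920 genes tested were higher and 1.44% lower. These 7 calls came to 3 without CdxE2_KO replicate 1, 2 without Ctrl replicate 1 and 1 without CdxE2_KO replicate 2 or Ctrl replicate 2. Nanog and Dppa4 were higher and Nr5a2 was lower in Arpc1bE_CdxE1_KO, where 23.2% of all genes were higher and 0.815% lower, and these 3 calls came to 2 without Ctrl replicate 1 and 0 without Ctrl replicate 2. The median over the 10 factors was -0.29 log2 units in CdxE2_KO and -0.18 in Arpc1bE_CdxE1_KO. With centred libraries, 6 factors were lower and 0 higher in CdxE2_KO, beside 3.6% of all genes lower and 2.64% higher. In Arpc1bE_CdxE1_KO 2 were then lower and 1 higher, beside 1.31% lower and 1.63% higher. The libraries of the compared groups did not overlap for 9 factors in siTfap2c, 9 in siKlf5, 10 in CdxE2_KO and 9 in Arpc1bE_CdxE1_KO, where the shares over all genes were 65.8%, 55.3%, 73.8% and 67.4%. All 4 of these comparisons use the same 2 control libraries, so they are not independent of each other.

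**Figure D1:**
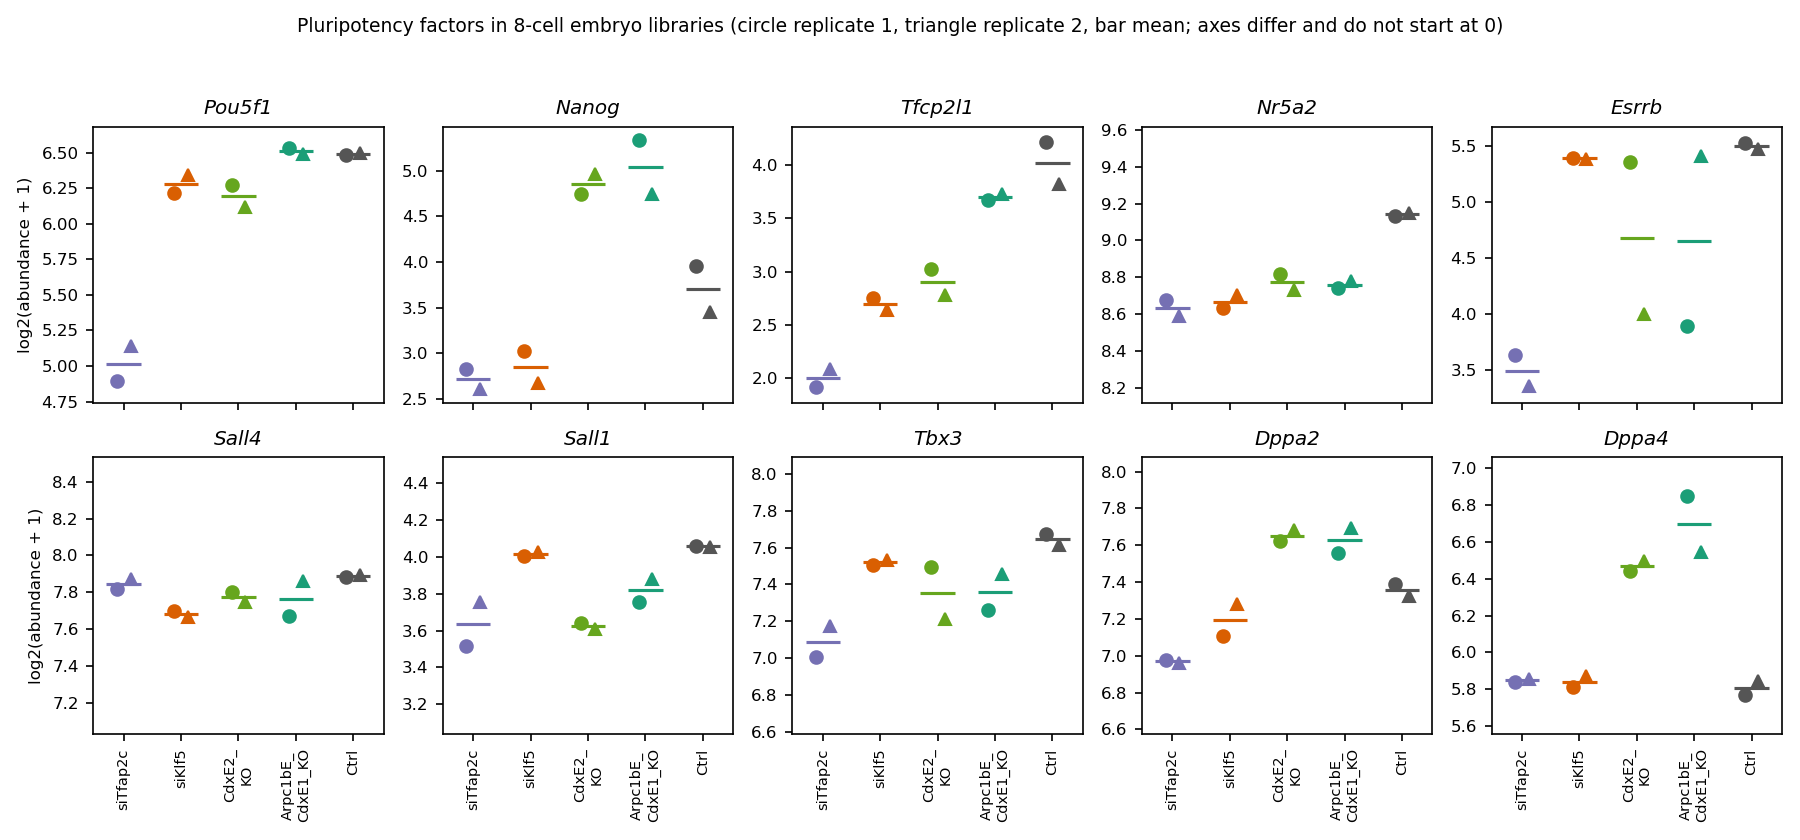
Levels of the 10 factors in each library, as log2(abundance + 1) on the vertical axis, for siTfap2c, siKlf5, CdxE2_KO, Arpc1bE_CdxE1_KO and Ctrl; circles are replicate 1, triangles replicate 2 and bars the group mean, and the axes differ between genes and do not start at 0. Pou5f1 and Esrrb sit lowest in siTfap2c, Nanog and Dppa4 highest in the motif knockouts as deposited, and the Esrrb libraries of both motif knockouts lie far apart.

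Promoter sequences were read for the factors whose genes have a RefSeq start site in the table used (6 of 10, with 12 start sites; GRCm38.p6). The 250 bases before each start were searched on both strands for GCCNNNGGC, a palindrome bound by AP-2 factors, for CCACNCCC, a CACC box bound by Krüppel-like factors, and for TCAAGG, the core bound by Nr5a2 and Esrrb. The AP-2 palindrome was found in 1 of the 6 genes (Tfcp2l1), beside 15.4% of 27025 genes with such a window. The CACC box was found in 5 of the 6 (Pou5f1, Nanog, Tfcp2l1, Nr5a2 and Sall1), beside 17.9% of all genes, and TCAAGG in 1 (Pou5f1), beside 14.1%. These 6 genes had 12 windows, while all 27025 genes had 32851, so the factors had more windows per gene in which to match. Their windows held 43.2% to 78.4% G and C, beside a median of 52.4% over all windows. The shares were not adjusted for either. Windows of genes with several start sites were pooled, and the matches did not overlap each other within a window. A match describes letters, not binding. The windows of Tfcp2l1, Pou5f1 and Nr5a2 are shown because these genes kept their call in the Tfap2c knockdown without each library in turn, and that of Nanog because it was lower in the Tfap2c knockdown and, as deposited, higher in both motif knockouts. Capitals mark the matches, and each is written 5′ to 3′ on the strand of the gene.
Tfcp2l1, plus strand, chr1:118627695-118627944: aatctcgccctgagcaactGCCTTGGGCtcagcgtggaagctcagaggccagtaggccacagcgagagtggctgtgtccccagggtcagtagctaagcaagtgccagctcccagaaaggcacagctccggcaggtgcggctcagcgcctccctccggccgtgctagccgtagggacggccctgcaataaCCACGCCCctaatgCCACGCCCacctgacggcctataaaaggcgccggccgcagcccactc
Pou5f1, start site 1, plus strand, chr17:35505782-35506031: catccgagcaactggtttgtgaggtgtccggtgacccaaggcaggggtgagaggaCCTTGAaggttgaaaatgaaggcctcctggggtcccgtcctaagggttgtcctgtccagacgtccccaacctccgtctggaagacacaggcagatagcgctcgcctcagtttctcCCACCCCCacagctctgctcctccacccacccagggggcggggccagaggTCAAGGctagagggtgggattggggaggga
Nr5a2, start site 2, minus strand, chr1:136953631-136953880: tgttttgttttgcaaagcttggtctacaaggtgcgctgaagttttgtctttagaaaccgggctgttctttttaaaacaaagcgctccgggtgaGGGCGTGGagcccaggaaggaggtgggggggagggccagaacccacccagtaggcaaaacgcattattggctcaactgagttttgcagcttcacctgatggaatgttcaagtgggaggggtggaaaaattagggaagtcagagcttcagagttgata
Nanog, start site 1, plus strand, chr6:122707239-122707488: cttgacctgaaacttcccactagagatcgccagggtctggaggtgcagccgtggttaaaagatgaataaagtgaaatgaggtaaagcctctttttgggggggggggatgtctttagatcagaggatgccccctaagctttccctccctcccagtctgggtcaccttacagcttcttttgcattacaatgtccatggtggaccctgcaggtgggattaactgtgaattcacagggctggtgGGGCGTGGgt
In Tfcp2l1 the AP-2 palindrome lies at -231 to -223 from the start and the CACC boxes at -61 to -54 and -47 to -40. In Pou5f1 the TCAAGG core lies at -195 to -190 on the opposite strand and at -30 to -25 on the strand of the gene, with a CACC box at -80 to -73. The CACC box of Nr5a2 lies at -157 to -150 and that of Nanog start site 1 at -10 to -3, both on the opposite strand. The windows of Pou5f1 start site 2 and Nr5a2 start site 1, not shown, hold no match to any of these motifs. The window of Nanog start site 2, not shown, holds CACC boxes at -86 to -79 and -52 to -45 on the opposite strand. It overlaps the window of start site 1, and its box at -86 to -79 is the same bases as the box at -10 to -3 there.

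**Figure D2:**
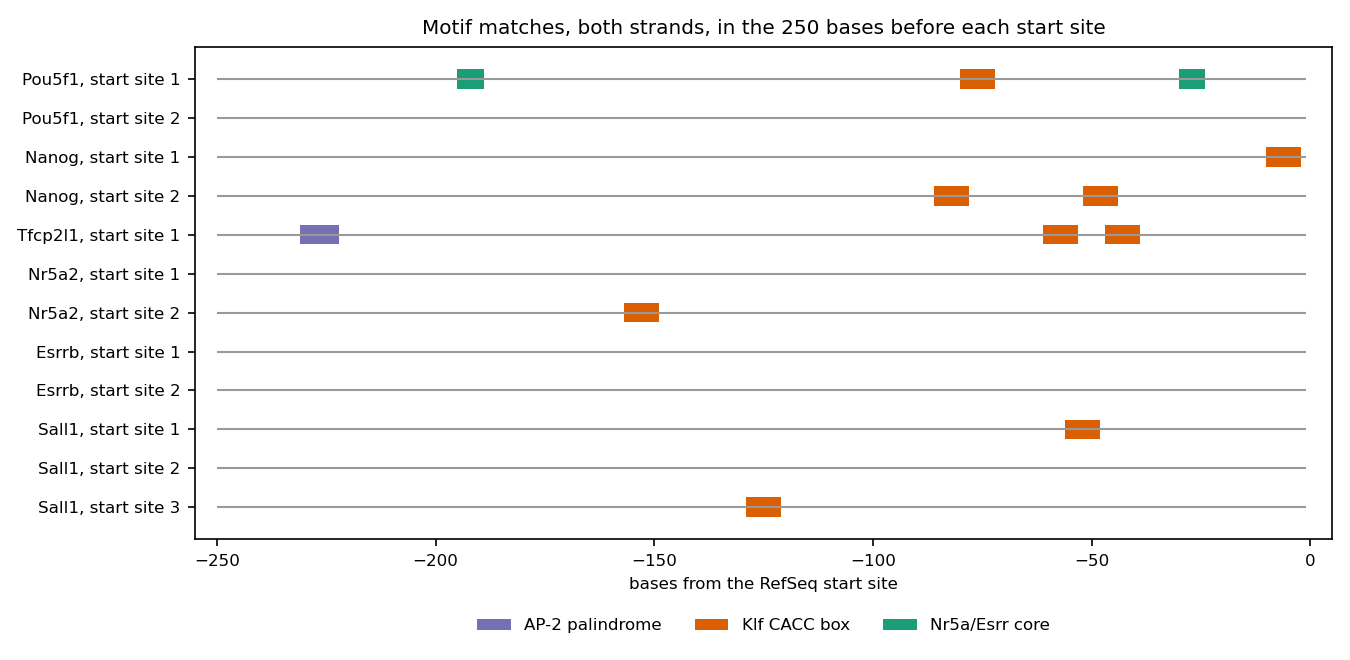
Positions of the motif matches in the 250 bases before each of the 12 RefSeq start sites of 6 factors; the horizontal axis is the distance in bases from the start site and colours mark the AP-2 palindrome, the Klf CACC box and the Nr5a/Esrr core. The AP-2 palindrome appears in Tfcp2l1 alone among these windows, and CACC boxes appear in 5 of the 6 genes. The windows of Nanog start sites 1 and 2 overlap, and the box of start site 1 is drawn again in start site 2.

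Pou5f1 (mm10 chr17:35506018-35510772, plus strand) encodes Oct4, the POU factor without which the mouse inner cell mass is not pluripotent. It stood at 4.89 and 5.14 log2 units in siTfap2c, 6.22 and 6.34 in siKlf5, 6.27 and 6.12 in CdxE2_KO, 6.53 and 6.49 in Arpc1bE_CdxE1_KO, and 6.48 and 6.50 in Ctrl. Both siTfap2c libraries lay below the 8 others. The difference of siTfap2c from Ctrl was -1.47 log2 units (SE 0.10, adjusted p = 1.1e-05 by limma), a mean of 31.5 against 88.9 linear units, and it ran from -1.60 to -1.35 when each of the 4 libraries was left out. In siKlf5 Pou5f1 differed by -0.21 (95% confidence interval -0.43 to 0.01, adjusted p = 0.25). In CdxE2_KO it was lower by limma (-0.30, adjusted p = 0.040; -0.63 and 0.013 when centred). That call was lost without CdxE2_KO replicate 1 (adjusted p = 0.080), CdxE2_KO replicate 2 (0.23), Ctrl replicate 1 (0.16) or Ctrl replicate 2 (0.17). The Arpc1bE_CdxE1_KO libraries overlapped with Ctrl (0.02, adjusted p = 0.86), and centring turned the sign (-0.30, adjusted p = 0.12). RefSeq lists 5 Pou5f1 pseudogenes, of which Gm5712 alone is in the tables, at 0 to 0.20 log2 units, and the antisense gene Gm19553 shares 1475 bases with Pou5f1. The counting of strand and of shared reads is not given in the sources used here, so the level of Pou5f1 is uncertain to that extent.

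Nanog (chr6:122707489-122714633, plus strand), the homeodomain factor of the epiblast, stood at 2.83 and 2.61 log2 units in siTfap2c, 3.02 and 2.67 in siKlf5, 4.74 and 4.96 in CdxE2_KO, 5.33 and 4.75 in Arpc1bE_CdxE1_KO, and 3.95 and 3.45 in Ctrl. The knockdown libraries lay below both Ctrl libraries and the motif knockout libraries above them, and within each kind of group the libraries overlapped. Relative to Ctrl it fell by 0.98 log2 units in siTfap2c (SE 0.22, adjusted p = 0.011), a mean of 5.6 against 12.2 linear units. The call was lost without Ctrl replicate 1 (-0.73, adjusted p = 0.092) or siTfap2c replicate 2 (-0.87, adjusted p = 0.077). In siKlf5 the difference was -0.85 (SE 0.22, adjusted p = 0.051), and 5 of 12 alternative settings brought it under the threshold. It was higher in CdxE2_KO by 1.15 (SE 0.23, adjusted p = 0.013) and in Arpc1bE_CdxE1_KO by 1.34 (SE 0.23, adjusted p = 0.012). When centred the differences were 0.82 (adjusted p = 0.074) and 1.02 (adjusted p = 0.060), short of the threshold. As deposited, the CdxE2_KO call was lost without CdxE2_KO replicate 2 (adjusted p = 0.076) or Ctrl replicate 2 (0.075), and the Arpc1bE_CdxE1_KO call without Ctrl replicate 2 (0.077). RefSeq lists 2 Nanog pseudogenes, which are not in the tables, so reads shared with them are a further uncertainty.

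Tfcp2l1 (chr1:118627945-118685168, plus strand), a grainyhead-like factor that supports self-renewal of mouse stem cells downstream of LIF, stood at 1.92 and 2.08 log2 units in siTfap2c, 2.75 and 2.64 in siKlf5, 3.02 and 2.78 in CdxE2_KO, 3.67 and 3.73 in Arpc1bE_CdxE1_KO, and 4.21 and 3.82 in Ctrl. As deposited, the groups stood in the order siTfap2c, siKlf5, CdxE2_KO, Arpc1bE_CdxE1_KO and Ctrl from low to high, with no overlap between neighbours, but siKlf5 and CdxE2_KO changed places when centred. It fell by 2.02 log2 units in siTfap2c (SE 0.15, adjusted p = 2.3e-05), to a mean of 3.01 linear units, against 15.3 in Ctrl. In siKlf5 it fell by 1.32 (SE 0.15, adjusted p = 0.0018; -1.27 and 0.0025 when centred), to 5.47 linear units. In CdxE2_KO it fell by 1.12 (SE 0.16, adjusted p = 0.0060), and centred values gave -1.45 (adjusted p = 0.0059). These 3 calls held in all 12 alternative settings each, leave-outs included. In Arpc1bE_CdxE1_KO the difference was -0.32 (95% confidence interval -0.69 to 0.06, adjusted p = 0.18), and -0.64 when centred (adjusted p = 0.083). Of all genes tested, 0.464% had a lower difference than Tfcp2l1 in siTfap2c, 0.375% in siKlf5 and 0.284% in CdxE2_KO.

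**Figure D3:**
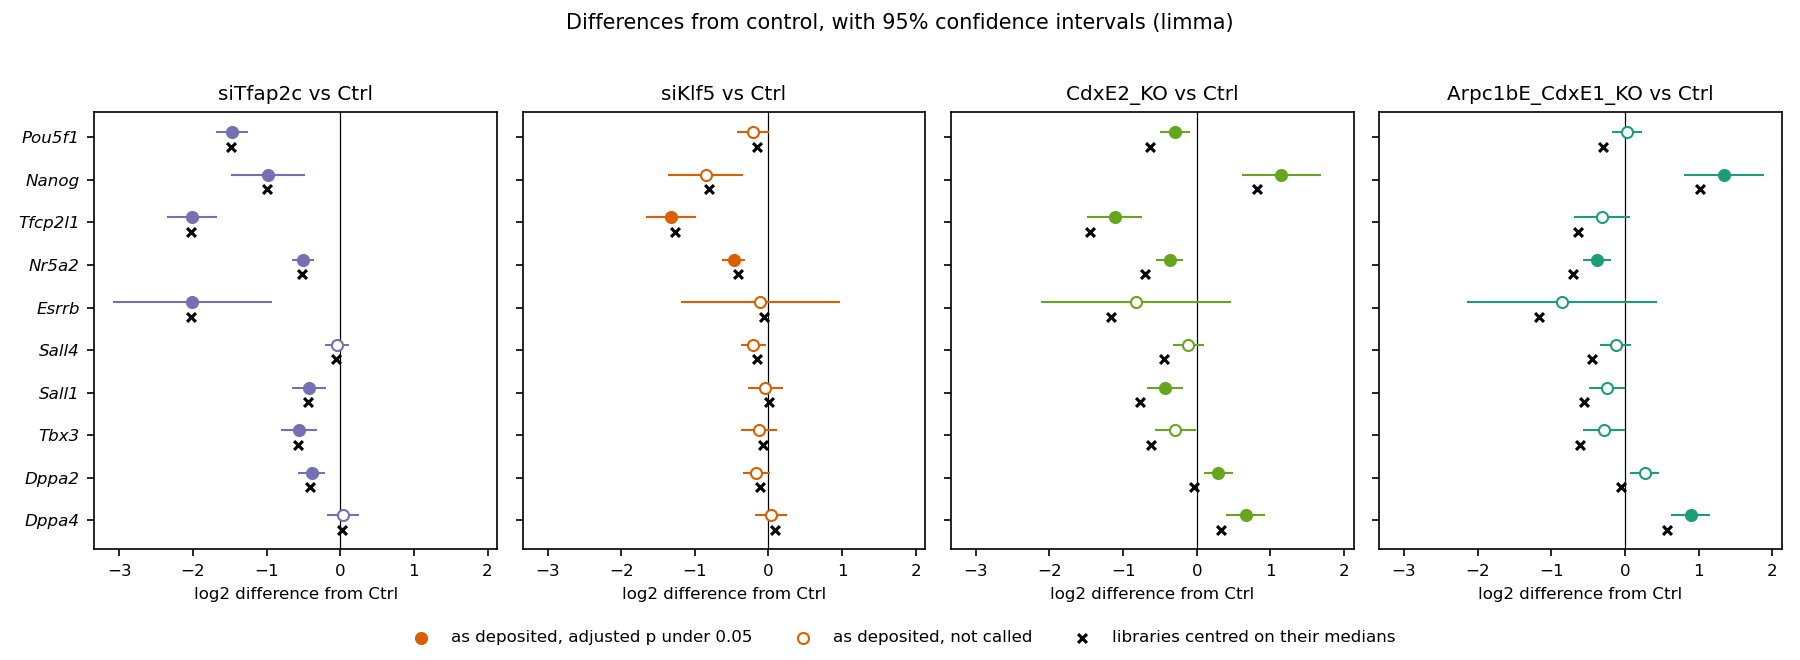
Differences from Ctrl in log2 units (horizontal axis) for each factor in siTfap2c, siKlf5, CdxE2_KO and Arpc1bE_CdxE1_KO, with 95% confidence intervals from limma; filled circles passed an adjusted p under 0.05, open circles did not, and crosses give the value with libraries centred on their medians. Tfcp2l1 lies at -2.02 in siTfap2c, -1.32 in siKlf5 and -1.12 in CdxE2_KO, and crosses lie left of the circles in both motif knockouts.

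Of the orphan nuclear receptors, Nr5a2 (chr1:136842571-136960448, minus strand) binds the Pou5f1 promoter in mouse stem cells. It stood at 8.68 and 8.59 log2 units in siTfap2c, 8.63 and 8.70 in siKlf5, 8.82 and 8.73 in CdxE2_KO, 8.74 and 8.78 in Arpc1bE_CdxE1_KO, and 9.13 and 9.15 in Ctrl. All 8 perturbed libraries lay below both Ctrl libraries, as deposited within 0.23 log2 units of each other. The difference from Ctrl was -0.51 in siTfap2c (SE 0.07, adjusted p = 0.00065) and -0.47 in siKlf5 (SE 0.07, adjusted p = 0.0046), and both calls held without each library; centred, these differences were -0.52 and -0.42. In CdxE2_KO it was -0.37 (adjusted p = 0.016) and in Arpc1bE_CdxE1_KO -0.38 (adjusted p = 0.019), and centring widened these to -0.70 (adjusted p = 0.0073) and -0.70 (adjusted p = 0.0083). As deposited, the CdxE2_KO call was lost without CdxE2_KO replicate 1 (0.077), CdxE2_KO replicate 2 (0.13), Ctrl replicate 1 (0.10) or Ctrl replicate 2 (0.10), and the Arpc1bE_CdxE1_KO call without Ctrl replicate 1 (0.11) or Ctrl replicate 2 (0.12), each value an adjusted p.

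Esrrb (chr12:86361117-86521628, plus strand), a receptor of the naive state that in mouse stem cells acts downstream of Nanog, stood at 3.63 and 3.35 log2 units in siTfap2c, 5.39 and 5.39 in siKlf5, 5.36 and 4.0 in CdxE2_KO, 3.89 and 5.41 in Arpc1bE_CdxE1_KO, and 5.53 and 5.48 in Ctrl. As deposited the siTfap2c libraries were the lowest of all, and in each motif knockout 1 library lay near Ctrl and 1 far below it. The difference of siTfap2c from Ctrl was -2.01 (SE 0.48, adjusted p = 0.014), a mean of 10.3 against 44.4 linear units. Its call was lost without Ctrl replicate 1 (adjusted p = 0.070), Ctrl replicate 2 (0.062), siTfap2c replicate 1 (0.054) or siTfap2c replicate 2 (0.079), while the difference ran only from -2.15 to -1.87. With the 4 libraries of these groups alone in the fit the adjusted p was 2.9e-05. The gap between replicates was 1.36 log2 units in CdxE2_KO and 1.52 in Arpc1bE_CdxE1_KO, exceeded by 0.786% and 0.688% of genes in those groups, against 0.28 in siTfap2c, 0.0055 in siKlf5 and 0.05 in Ctrl. In CdxE2_KO Esrrb differed from Ctrl by -0.83 (adjusted p = 0.28), and by -0.15 or -1.51 depending on which knockout library was left out. In Arpc1bE_CdxE1_KO it differed by -0.85 (adjusted p = 0.28), with -0.09 without replicate 1 and -1.61 without replicate 2. In siKlf5 the difference was -0.11 (95% confidence interval -1.19 to 0.97, adjusted p = 0.93), and the siKlf5 and Ctrl libraries did not overlap. The spread was pooled over all 10 libraries, so this interval includes the wide motif knockout gaps and does not measure siKlf5 and Ctrl alone.

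Tbx3 (chr5:119670669-119684724, plus strand), a T-box repressor and activator of the naive state, stood at 7.0 and 7.18 log2 units in siTfap2c, 7.51 and 7.53 in siKlf5, 7.50 and 7.21 in CdxE2_KO, 7.26 and 7.46 in Arpc1bE_CdxE1_KO, and 7.67 and 7.61 in Ctrl. As deposited the siTfap2c libraries were the lowest and the Ctrl libraries the highest, but siTfap2c was not the lowest group when centred. In siTfap2c it fell by 0.55 (SE 0.11, adjusted p = 0.0052; -0.57 and 0.0062 when centred), a call lost without siTfap2c replicate 1 (adjusted p = 0.052). The differences were -0.12 in siKlf5 (adjusted p = 0.56), -0.29 in CdxE2_KO (adjusted p = 0.10; -0.62 and 0.036 when centred) and -0.28 in Arpc1bE_CdxE1_KO (adjusted p = 0.12; -0.61 and 0.052 when centred). The antisense gene Tbx3os1 shares 697 bases with Tbx3.

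Of the zinc finger factors of the spalt family, Sall1 was called lower in the Tfap2c knockdown and Sall4 was not, and the difference between these genes was not tested. Sall4 (chr2:168748332-168767943, minus strand), which binds with Oct4 and Nanog in mouse stem cells, stood at 7.82 and 7.87 log2 units in siTfap2c, 7.70 and 7.67 in siKlf5, 7.80 and 7.75 in CdxE2_KO, 7.67 and 7.86 in Arpc1bE_CdxE1_KO, and 7.88 and 7.90 in Ctrl. Ctrl was highest, but as deposited all 10 libraries lay within 0.23 log2 units. The difference of siTfap2c from Ctrl was -0.04 (95% confidence interval -0.21 to 0.13, adjusted p = 0.73), an interval that does not reach the difference of Pou5f1. In siKlf5 it was -0.21 (adjusted p = 0.13), in CdxE2_KO -0.12 (adjusted p = 0.35; -0.45 and 0.043 when centred) and in Arpc1bE_CdxE1_KO -0.12 (adjusted p = 0.33; -0.44 and 0.060 when centred). Sall4 shares 1801 bases with Gm14261 on the opposite strand.

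Sall1 (chr8:89027235-89044162, minus strand), a relative of Sall4 that also binds Nanog in mouse stem cells, stood at 3.52 and 3.76 log2 units in siTfap2c, 4.01 and 4.03 in siKlf5, 3.64 and 3.61 in CdxE2_KO, 3.76 and 3.88 in Arpc1bE_CdxE1_KO, and 4.06 and 4.05 in Ctrl. The siKlf5 libraries lay just under Ctrl, and the siTfap2c and CdxE2_KO libraries overlapped at the bottom as deposited. It fell by 0.42 in siTfap2c (SE 0.10, adjusted p = 0.016) and by 0.43 in CdxE2_KO (SE 0.10, adjusted p = 0.022; -0.77 and 0.013 when centred). The siTfap2c call was lost without siTfap2c replicate 1 (adjusted p = 0.13), Ctrl replicate 1 (0.080) or Ctrl replicate 2 (0.074). The CdxE2_KO call was lost without CdxE2_KO replicate 1 (adjusted p = 0.086), CdxE2_KO replicate 2 (0.11), Ctrl replicate 1 (0.11) or Ctrl replicate 2 (0.11). In Arpc1bE_CdxE1_KO the difference was -0.24 (adjusted p = 0.13), and -0.56 with an adjusted p of 0.045 when centred. In siKlf5 it was -0.04 (adjusted p = 0.87), with a sign that turned when centred (0.01).

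Dppa2 and Dppa4 encode SAP domain proteins that act together on chromatin in mouse stem cells and activate genes of the 2-cell embryo. Their genes are neighbours on the plus strand of chromosome 16, Dppa4 at chr16:48283733-48294237 and Dppa2 at chr16:48303908-48319723, with 9670 bases between them. Dppa2 stood at 6.98 and 6.96 log2 units in siTfap2c, 7.11 and 7.28 in siKlf5, 7.62 and 7.68 in CdxE2_KO, 7.56 and 7.69 in Arpc1bE_CdxE1_KO, and 7.39 and 7.33 in Ctrl. Dppa4 stood at 5.84 and 5.86 in siTfap2c, 5.81 and 5.87 in siKlf5, 6.44 and 6.50 in CdxE2_KO, 6.85 and 6.55 in Arpc1bE_CdxE1_KO, and 5.77 and 5.84 in Ctrl. For Dppa4 the knockdown libraries overlapped with Ctrl and the motif knockout libraries lay above it, while Dppa2 lay below Ctrl in both knockdowns and, as deposited, above it in both motif knockouts.

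Dppa2 fell by 0.39 log2 units in siTfap2c (SE 0.08, adjusted p = 0.0072), a call lost without Ctrl replicate 1 (adjusted p = 0.059), and differed by -0.16 in siKlf5 (adjusted p = 0.28). In CdxE2_KO it was called higher (0.29, adjusted p = 0.039), but the median gene also stood 0.29 above Ctrl, and centring gave -0.04 (adjusted p = 0.83). The call was also lost without CdxE2_KO replicate 1 (adjusted p = 0.13), CdxE2_KO replicate 2 (0.20), Ctrl replicate 1 (0.14) or Ctrl replicate 2 (0.19). In Arpc1bE_CdxE1_KO the difference was 0.27 (adjusted p = 0.058) and -0.05 when centred. Dppa4 differed from Ctrl by 0.04 in siTfap2c (95% confidence interval -0.18 to 0.26, adjusted p = 0.80) and by 0.04 in siKlf5 (adjusted p = 0.89). It was higher by 0.66 in CdxE2_KO (SE 0.11, adjusted p = 0.0088) and by 0.89 in Arpc1bE_CdxE1_KO (SE 0.11, adjusted p = 0.0061), a mean of 87.7 and 103 against 55.0 linear units in Ctrl. Centred, the differences were 0.33 (adjusted p = 0.11) and 0.57 (adjusted p = 0.042). The CdxE2_KO call was lost without CdxE2_KO replicate 2 (0.063), Ctrl replicate 1 (0.063) or Ctrl replicate 2 (0.052), and the Arpc1bE_CdxE1_KO call without Ctrl replicate 2 (0.051), each value an adjusted p.

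**Figure D4:**
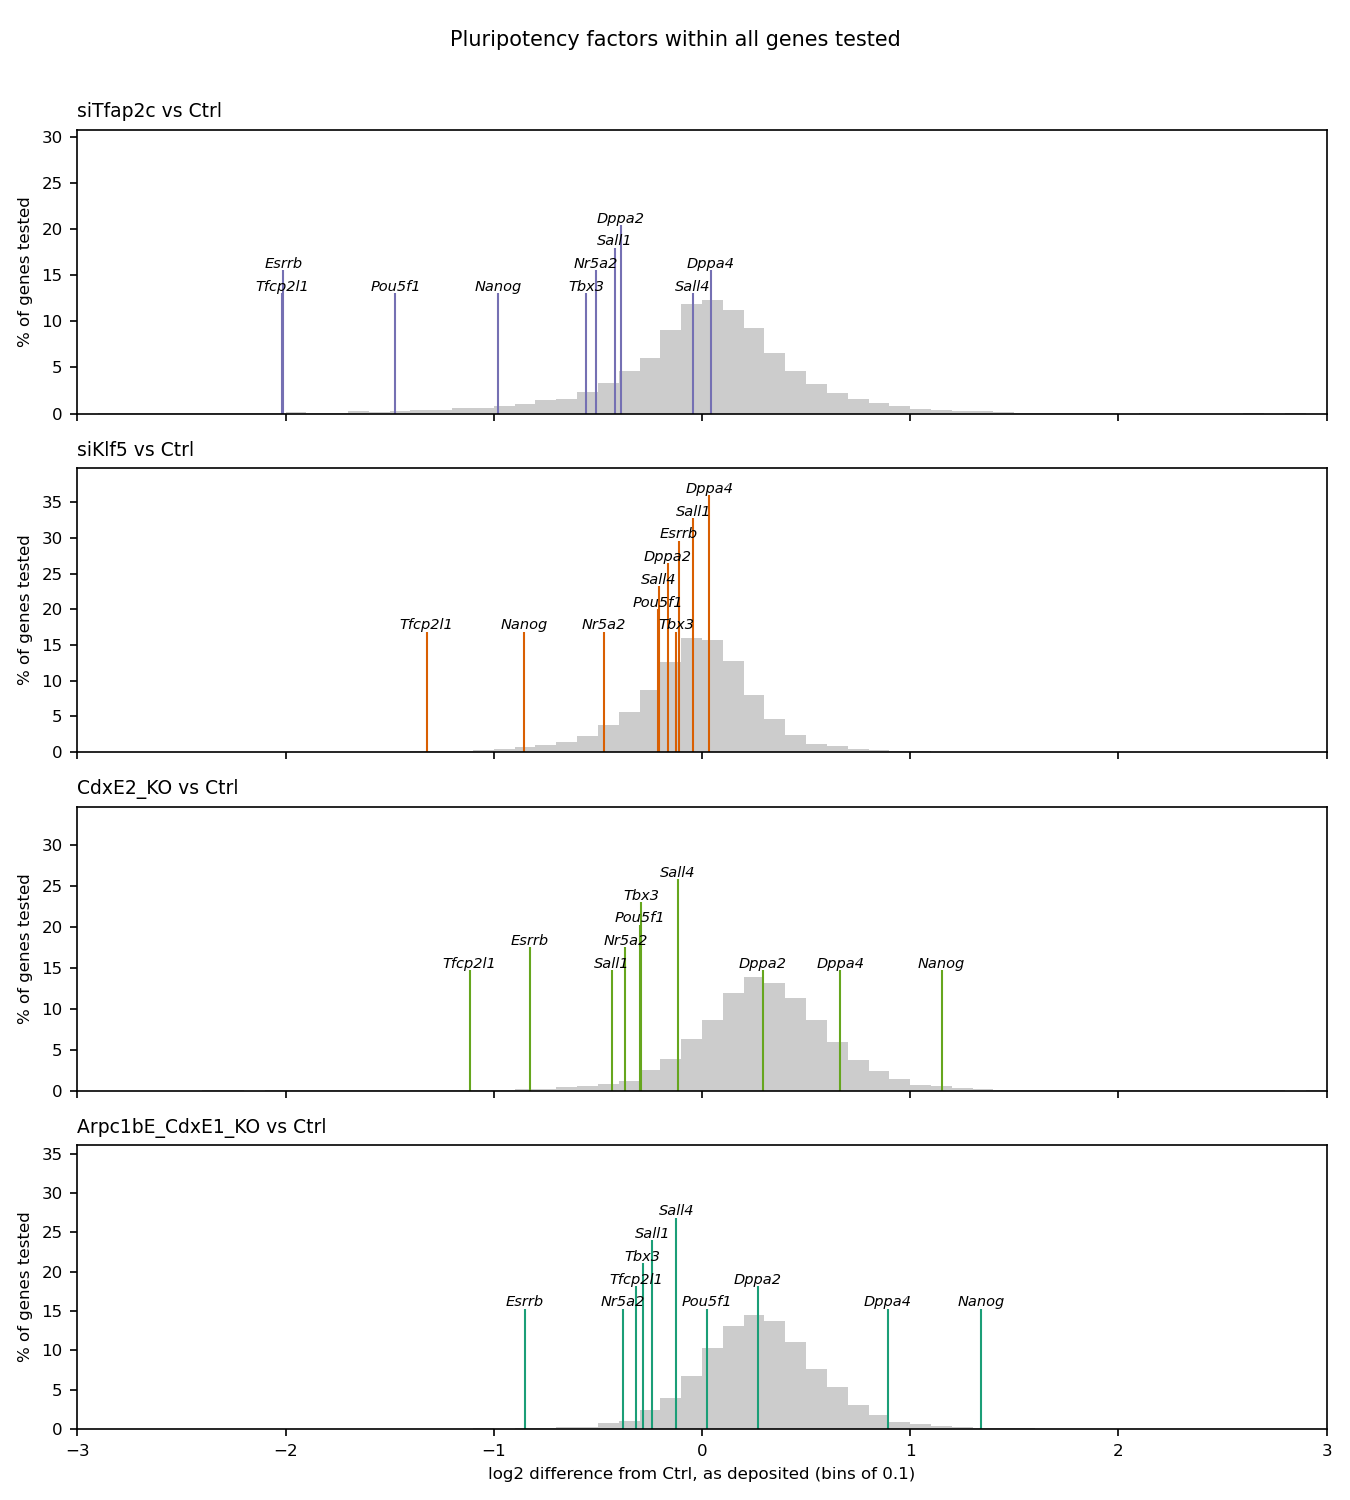
Differences from Ctrl of the 10 factors (coloured lines, labelled) over the distribution of all genes tested (grey bars, percent of genes in bins of 0.1 log2 units), as deposited, for siTfap2c, siKlf5, CdxE2_KO and Arpc1bE_CdxE1_KO from top to bottom. In siTfap2c 8 of the 10 lines lie at -0.39 or lower, in siKlf5 Tfcp2l1, Nanog and Nr5a2 stand apart from the rest, and in the motif knockouts the grey distribution itself is shifted to the right by 0.29 and 0.27.

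The knockdowns were also set against each other, and these differences use no control library. Values of siTfap2c and siKlf5 also stood in different tables that may have been scaled apart. All 10 libraries, Ctrl included, were still in the fit, so they shaped the SE, the filter and the adjusted p. Relative to siKlf5, 5 factors were lower in siTfap2c and 0 were higher, where 10.5% of 11195 genes were lower and 15.1% higher (13.1% and 11.4% when centred). The count of 5 came to 1 without siTfap2c replicate 1 or siKlf5 replicate 1 and to 2 without siKlf5 replicate 2. Pou5f1 was lower in siTfap2c by a log2 difference of -1.26 (SE 0.10, adjusted p = 3.2e-05), a call kept without each library. Tfcp2l1 differed by -0.69 (adjusted p = 0.0087), a call lost without siKlf5 replicate 1 (0.058) or siTfap2c replicate 1 (0.067). Esrrb differed by -1.90 (adjusted p = 0.018), lost without siTfap2c replicate 1 (0.062), siTfap2c replicate 2 (0.096), siKlf5 replicate 1 (0.078) or siKlf5 replicate 2 (0.078). Tbx3 differed by -0.43 (adjusted p = 0.017) and Sall1 by -0.38 (adjusted p = 0.026), both lost without siTfap2c replicate 1 (0.13 and 0.19), siKlf5 replicate 1 (0.071 and 0.092) or siKlf5 replicate 2 (0.085 and 0.11). Dppa2 differed by -0.23 (adjusted p = 0.071), and passed when centred (-0.30, adjusted p = 0.037). For Nanog the difference was -0.13 (95% confidence interval -0.63 to 0.38), for Nr5a2 -0.04 (-0.19 to 0.12), for Sall4 0.16 (-0.0041 to 0.33) and for Dppa4 0.01 (-0.21 to 0.23), with adjusted p of 0.72, 0.74, 0.14 and 0.97.

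Between the motif knockouts, CdxE2_KO against Arpc1bE_CdxE1_KO, 0 factors passed limma, where 0.0458% of the 10920 genes tested (5 genes) did. At an unadjusted p under 0.05 there were 2 factors, Pou5f1 and Tfcp2l1, and 11.3% of all genes. Tfcp2l1 stood lower in CdxE2_KO with a difference of -0.80 (95% confidence interval -1.18 to -0.42, adjusted p = 0.24) and Pou5f1 with -0.32 (-0.52 to -0.12, adjusted p = 0.32), and in both cases the libraries did not overlap, as for 43.4% of all genes. The other 8 differences lay between -0.23 (Dppa4) and 0.02 (Dppa2), with adjusted p of 0.47 and 0.92 for these.

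The wider pluripotency network was read from a list of 34 other factors, of which 25 were tested. In siTfap2c 12 were lower and 2 higher, 56% of the tested, where 24.6% of all genes were called, and the list's median difference was -0.40. Klf4, a naive factor, had a mean of 5.08 log2 units in siTfap2c and 6.18 in Ctrl (-1.09, adjusted p = 0.00013). Etv5, an ETS factor, differed by -1.07 (adjusted p = 0.00076) and Utf1, a chromatin protein of stem cells, by -1.14 (adjusted p = 0.00096). Klf17, a Krüppel-like factor of oocyte and early embryo, was higher, at 7.77 against 6.66 (1.11, adjusted p = 0.00022). In siKlf5 4 were lower and 2 higher (24%, where 7.52% of all genes were called; median -0.07), with Zscan10 at -0.87, Myc at -0.68, Mybl2 at -0.43 and Klf2 at 0.52 (adjusted p = 0.015, 0.029, 0.025 and 0.018).

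In CdxE2_KO 6 of these 25 were higher and 0 lower (24%, where 29.9% of all genes were called), and 2 higher and 1 lower when centred. Klf17 was higher by 1.03 (adjusted p = 0.0042) and Zscan10 by 1.2 (adjusted p = 0.0066), and centred values were 0.70 (adjusted p = 0.026) and 0.87 (adjusted p = 0.043). In Arpc1bE_CdxE1_KO 4 were higher and 0 lower (16%, where 24% of all genes were called), against 0 higher and 2 lower when centred. Klf17 (0.73), Dppa5a (0.74), Dppa3 (0.56) and Rif1 (0.35) were those called as deposited, and centred their differences were 0.40, 0.42, 0.24 and 0.03, with adjusted p of 0.12 to 0.85.

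Of 20 genes that Oct4 and Nanog bind and activate in mouse stem cells, 16 were tested, and in siTfap2c 7 were lower and 1 higher (50%, where 24.6% of all genes were called; median -0.33). Tdgf1, the Nodal co-receptor, averaged 3.02 log2 units in siTfap2c and 5.84 in Ctrl (-2.82, adjusted p = 4.3e-07). Jarid2, a cofactor of Polycomb repressive complex 2, differed by -0.86 (adjusted p = 0.00042) and Tet2, an enzyme that oxidises methylcytosine, by -0.69 (adjusted p = 0.00093). In siKlf5 3 were lower and 0 higher (18.8%, beside 7.52% of all genes; median -0.22), Tdgf1 by -0.92 (adjusted p = 0.0018), Jarid2 by -0.74 (adjusted p = 0.0047) and Tet2 by -0.39 (adjusted p = 0.045, and 0.077 when centred). In CdxE2_KO 4 were higher and 0 lower (25%, beside 29.9% of all genes), among them Fgf4 by 0.98 (adjusted p = 0.0099) and Tdgf1 by 0.52 (adjusted p = 0.018), and 0 were higher and 1 lower when centred. In Arpc1bE_CdxE1_KO 5 were higher and 1 lower (37.5%, beside 24% of all genes), among them Tdgf1 by 0.73 (adjusted p = 0.0098), and 0 higher and 1 lower when centred. The lists share genes, such as Utf1 and Rif1.

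Among 22 relatives of the factors, 15 were tested. In siTfap2c 2 were lower and 3 higher (33.3%, beside 24.6% of all genes; median 0.20), with the T-box factor Tbx20 at -1.45 (adjusted p = 2.2e-05), the estrogen-related receptor Esrra at -0.48 (adjusted p = 0.0070), the grainyhead factor Grhl2 at 0.76 (adjusted p = 0.00016) and the POU factor Pou2f1 at 0.49 (adjusted p = 0.012). In siKlf5 the nuclear receptor Nr2c2 alone was called (-0.56, adjusted p = 0.0087), 6.67% of the tested beside 7.52% of all genes. In CdxE2_KO 1 was lower, Tbx20 (-0.67, adjusted p = 0.0060; -1.01 and 0.0040 when centred), and 4 were higher, against 0 when centred (33.3% as deposited, beside 29.9% of all genes). In Arpc1bE_CdxE1_KO 3 were higher and 0 lower, against 0 when centred (20% as deposited, beside 24%). Of 20 genes of the 2-cell embryo that Dppa2 and Dppa4 activate in mouse stem cells, 7 were tested in the knockdown fit and 5 in the motif knockout fit. In siTfap2c Tdpoz1 was lower (-0.78, adjusted p = 0.049) and Spz1 higher (0.53, adjusted p = 0.019), and in siKlf5 0 were called (28.6% and 0% of the tested, beside 24.6% and 7.52% of all genes). In CdxE2_KO Spz1 (0.89, adjusted p = 0.0060; 0.56 and 0.045 when centred) and Tdpoz1 (0.81, adjusted p = 0.048; 0.47 and 0.27 when centred) were higher, and in Arpc1bE_CdxE1_KO Spz1 was (0.51, adjusted p = 0.029; 0.19 and 0.40 when centred), as deposited 40% and 20% of the tested, beside 29.9% and 24% of all genes.

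Genes nearest in pattern were sought among 4403 genes with at least 10 linear units in Ctrl, by the root mean square distance between values minus the Ctrl mean over the 8 other libraries. The distance, in log2 units, was smallest for Sall4 and Dppa4. Sall4 lay 0.0513 from Lamp1 and 0.0594 from Bend3, and Dppa4 lay 0.0540 from Prdx1 and 0.0637 from Rpl31. Dppa2 lay 0.0699 from Uhrf1bp1l and 0.0738 from Bcas2, and Pou5f1 0.118 from Slc12a7 and 0.122 from Fbxl20. Among the factors themselves, Tbx3 was the nearest gene to Sall1 (0.128, followed by Pabpc4 at 0.133), and Pabpc4 (0.111) and Carm1 (0.126) were the nearest to Tbx3. Nr5a2 lay 0.141 from Nedd4l and 0.142 from Hmga2. The others had no close match, with Tmsb10 at 0.333 and Rmrp at 0.346 from Nanog, Steap3 at 0.371 and Sfrp1 at 0.504 from Tfcp2l1, and Firre at 0.504 and Slc25a22 at 0.556 from Esrrb. All of these values share the same 10 libraries and the same Ctrl mean.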

How the data were processed

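Total RNA of 8-cell mouse embryos was sequenced from stranded, randomly primed libraries, per the labels' protocols. The submitters' processing notes name StringTie 1.3.4, Cufflinks, HISAT2 2.1.0 and SAMtools 1.7, and mm10 as the build. The authors deposited log2(abundance + 1) values for 24421 genes in 3 tables, 1 for each knockdown and 1 for the motif knockouts with the control. The abundance unit is not named, read counts were not analysed here and depth is unknown, so no counting interval is given. The added constant of 1 understates changes of low genes.

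A gene was tested where 2 or more fitted libraries reached 1 linear unit. The test was limma 3.58.1 (moderated with a trend, R 4.3.3), Benjamini-Hochberg adjusted over all genes tested. Every adjusted p in the text is from limma, and a call means an adjusted p under 0.05. Knockdown comparisons were fitted on all 10 libraries across tables (11195 genes), and motif knockouts in their own table of 6 (10920 genes). All 10 factors passed the filter in both fits. The fits were tested on simulated data. Where a library was left out, the lone remaining library was assumed to vary like the other groups.

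The factors and lists were chosen with earlier results of these data known, so no test was run over a list. Genes named beyond the 10 factors are the knocked down genes, up to 4 called genes of each list with the lowest adjusted p, and the 2 nearest in pattern of each factor. Symbols starting with Gm and a digit, ending in Rik or containing -ps were left out as nearest genes. Positions are from GENCODE M21 (mm10), and promoter windows from RefSeq (GRCm38.p6). Alternatives changed the scaling, the added constant, the filter, the libraries fitted and the replicate block. Dixon's outlier test could not be applied to groups of 2.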

Additional observations from a re-analysis of the deposited data

How the results depend on the processing

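Over the 10 factors and 6 comparisons, 610 of 720 values under another setting kept their direction and side of the threshold, 66 lost a call, 15 gained 1 and 29 turned sign, and the causes were not tested. Centred on library medians, Sall1 in siKlf5 was 0.010. In Arpc1bE_CdxE1_KO, Pou5f1 was -0.30 centred, -0.31 with libraries scaled to the same total and -0.26 after quantile normalization, and Dppa2 -0.053 centred and -0.062 scaled to the same total. Dppa2 in CdxE2_KO was -0.038 centred and -0.0041 scaled to the same total. Between siTfap2c and siKlf5, Dppa4 was -0.062 centred and -0.041 after quantile normalization, and Nr5a2 was 0.042 after quantile normalization. Between CdxE2_KO and Arpc1bE_CdxE1_KO, Sall4 was -0.0023 centred and Tbx3 was 0.027 scaled to the same total. With each library left out in turn, Dppa4 in siKlf5 ran from -0.0016 to 0.072. Between siTfap2c and siKlf5, Nanog ran from -0.30 to 0.05, Dppa4 from -0.024 to 0.038 and Nr5a2 from -0.080 to 0.0088. Between the motif knockouts, Nanog ran from -0.48 to 0.10, Nr5a2 from -0.031 to 0.056, Esrrb from -0.73 to 0.78, Sall4 from -0.084 to 0.10, Dppa2 from -0.043 to 0.093 and Tbx3 from -0.15 to 0.14.

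Leaving out each library, 4 to 6 factors were called in siTfap2c against Ctrl, 1 to 3 in CdxE2_KO, 0 to 4 in Arpc1bE_CdxE1_KO and 1 to 4 between siTfap2c and siKlf5, while siKlf5 against Ctrl kept 2. Without the filter on low values, 4 were called in CdxE2_KO and 3 between the knockdowns, the latter with no count over all genes beside it. The adjusted p was then 0.060 for Esrrb in siTfap2c, 0.069 for Pou5f1, 0.053 for Nanog and 0.077 for Dppa2 in CdxE2_KO, 0.056 for Nr5a2 in Arpc1bE_CdxE1_KO, and 0.073 for Esrrb and 0.053 for Tbx3 between the knockdowns. Over all genes, the count called in siKlf5 was 507 without the filter and 211 to 317 with a library left out, in place of 842, and with a library left out 1535 to 1773 in siTfap2c in place of 2749 and 1587 to 1785 between the knockdowns in place of 2865. In CdxE2_KO it was 681 centred, 673 scaled to the same total, 659 after quantile normalization, 1858 without the filter and 514 to 1099 with a library left out, in place of 3270. In Arpc1bE_CdxE1_KO it was 321, 312, 325, 1166 and 161 to 2864 under the same settings, in place of 2621, and between the motif knockouts 0 without the filter, 2 with their libraries alone and 4 to 200 with a library left out, in place of 5. Centring moved the split from 252 higher and 590 lower to 379 and 441 in siKlf5, and from 1693 and 1172 to 1279 and 1472 between the knockdowns. In the motif knockouts it moved from 3113 and 157 to 288 and 393 in CdxE2_KO and from 2532 and 89 to 178 and 143 in Arpc1bE_CdxE1_KO.

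With the replicate block, 8 factors were called in siTfap2c, 3 in siKlf5, 6 in CdxE2_KO, 3 in Arpc1bE_CdxE1_KO, 5 between the knockdowns and 0 between the motif knockouts. Nanog in siKlf5 then passed (adjusted p = 0.030) and Dppa2 in CdxE2_KO did not (0.050). Shares over all genes are not given for the replicate block, so the counts of factors have no background beside them. Deviations of same-numbered libraries correlated by -0.02 to 0.05 over the genes tested, so no strong gene-by-gene pattern was shared. A shift common to all genes is removed by this correlation and cannot be seen in it. The correlation cannot settle whether same-numbered libraries were made together. The main limits are 2 libraries a group, an unnamed abundance unit, unknown depth and knockdowns compared with a control and with each other across tables.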
